A study of Homo sapiens with 10 samples.

Results

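The 38 genes described here carry the cell through the G2 phase and mitosis. They were listed by name, with earlier results of these data known, out of the 58302 genes that each deposited table lists. All 38 were found by their Ensembl identifier, and all 38 had a mean of at least 1 FPKM (a read level corrected for gene length and sequencing depth) in each comparison, so none was lost to the filter on low values. They were followed in 10 RNA-Seq libraries of 3 human liver cancer lines, with 1 library per condition. SK-hep1 cells carried a mock control, PSPC1, PSPC1 with PTK6 (PSPC1/PTK6), the PSPC1-Y523F mutant, or that mutant with PTK6 (PSPC1-Y523F/PTK6). Mahlavu cells carried a mock control, the C-terminal fragment PSPC1-CT131, or that fragment with a changed nuclear localization signal (Mut-NLS-CT131). Huh-7 cells were left untreated or were given 10 ng/ml HGF, the ligand of the c-Met receptor, for 48 h. PSPC1 is a nuclear RNA-binding protein of paraspeckles, and PTK6 is a non-receptor tyrosine kinase that can bind it. Constructs were introduced on plasmids, and the sources used here do not say whether the sequenced cells were pools or single clones. With 1 library per condition no comparison of 2 libraries below has a replicate check, and intervals cover counting error only. PTK6, present with both forms of PSPC1, was tested over samples in a fit of 4 libraries.

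Cells that leave S phase build up cyclins A and B, which bind the kinase CDK1 and drive entry into mitosis. Aurora and Polo-like kinases then build the spindle, the spindle checkpoint holds the anaphase-promoting complex (APC/C) until chromosomes are attached, and the APC/C with its activator CDC20 destroys cyclin B and securin. Most of these genes are transcribed in a wave that starts in late S phase, and their RNA serves widely as a mark of dividing cells. The wave is held down in resting cells by the DREAM complex and driven in G2 by the MuvB core with B-MYB and FOXM1, which reach DNA through an element called CHR, while NF-Y binds CCAAT boxes nearby. In bulk RNA, fewer cells in G2 or mitosis and less RNA per cell cannot be told apart.

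The promoters were read first, because they show a feature that the choice of genes by name did not use. RefSeq (GRCh38.p14) gave 40 promoters, each from 250 bases before to 50 bases after a start of transcription, for 31 of the 38 genes. AURKA, TPX2, BIRC5, BUB3, TTK, UBE2C and FOXM1 were not matched. A CHR (TTTGAA or TTCGAA, either strand) was present in a promoter of 23 of the 31 genes, or 74.2%, against 19.5% of the 27305 genes with a promoter. A CCAAT box (either strand) was present for 28 of the 31 genes, or 90.3%, against 39.7% of all genes. A CHR and a CCAAT box occurred together for 22 of the 31, against 7.85% of all genes. The letters GGCGG, which resemble the CDE element often found beside a CHR, occurred for all 31 genes that had a promoter, and for 61.5% of all genes. The CHR lay near the start of transcription: it began within 60 bases of a start for 21 of the 31 genes, against 6.75% of all genes. The 120 bases before the start are shown for 8 genes with a CHR in this window, with CHR and CCAAT letters of either strand in capitals. CCNB2 is shown for the order of its elements, and the others because each is counted as changed in a comparison below.
CCNB2 (chr15:59105026-59105145, plus strand): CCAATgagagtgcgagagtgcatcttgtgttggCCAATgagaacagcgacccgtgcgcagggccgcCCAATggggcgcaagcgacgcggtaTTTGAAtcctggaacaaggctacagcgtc
PLK1 (chr16:23678769-23678888, plus strand): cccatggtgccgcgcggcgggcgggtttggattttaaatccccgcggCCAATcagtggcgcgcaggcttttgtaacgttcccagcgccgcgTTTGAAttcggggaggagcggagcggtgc
MKI67 (chr10:128126424-128126543, minus strand): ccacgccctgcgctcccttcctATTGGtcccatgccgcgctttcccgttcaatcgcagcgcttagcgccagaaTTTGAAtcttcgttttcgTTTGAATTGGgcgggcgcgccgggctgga
ESPL1 (chr12:53268179-53268298, plus strand): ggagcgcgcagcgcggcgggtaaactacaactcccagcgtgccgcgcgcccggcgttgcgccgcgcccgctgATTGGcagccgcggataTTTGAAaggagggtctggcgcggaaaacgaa
HMMR (chr5:163460512-163460631, plus strand): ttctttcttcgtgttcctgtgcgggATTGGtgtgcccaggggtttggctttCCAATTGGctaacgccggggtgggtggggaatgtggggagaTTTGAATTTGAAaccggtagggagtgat
CKS2 (chr9:89311075-89311194, plus strand): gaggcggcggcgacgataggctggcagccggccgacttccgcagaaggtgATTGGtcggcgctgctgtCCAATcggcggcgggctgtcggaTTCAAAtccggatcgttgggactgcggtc
CDC20 (chr1:43358861-43358980, plus strand): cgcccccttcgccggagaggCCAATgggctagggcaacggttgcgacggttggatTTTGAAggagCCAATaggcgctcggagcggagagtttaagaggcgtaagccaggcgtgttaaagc
CDK1 (chr10:60778358-60778477, plus strand): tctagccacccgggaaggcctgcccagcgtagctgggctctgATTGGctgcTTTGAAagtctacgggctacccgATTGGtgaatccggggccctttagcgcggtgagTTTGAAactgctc
The CCNB2 window shows the usual order of 3 CCAAT boxes followed by 1 CHR, and CKS2 carries its CHR on the other strand. In MKI67 the second CHR shares bases with a CCAAT box of the other strand, and in HMMR a CHR follows another without a gap. A further 3 genes are shown because their windows hold CCAAT boxes but no CHR of these letters, which says only that the letters are absent from this stretch.
KIF20A (chr5:138178992-138179111, plus strand): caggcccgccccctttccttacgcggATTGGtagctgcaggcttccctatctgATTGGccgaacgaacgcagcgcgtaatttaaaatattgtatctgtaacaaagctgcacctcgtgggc
PTTG1 (chr5:160421735-160421854, plus strand): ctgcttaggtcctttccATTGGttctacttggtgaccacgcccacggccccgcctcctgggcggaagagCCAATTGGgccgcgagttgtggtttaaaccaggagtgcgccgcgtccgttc
CCNB1 (chr5:69167030-69167149, plus strand): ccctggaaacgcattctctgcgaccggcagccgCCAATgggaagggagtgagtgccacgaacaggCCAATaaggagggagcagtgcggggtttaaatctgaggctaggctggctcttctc
In PTTG1 the letters CCAATTGG hold a CCAAT box on both strands, and CCNB1 shows 2 CCAAT boxes. The plot of CHR positions sets these matches beside those of the other genes.

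**Figure D1:**
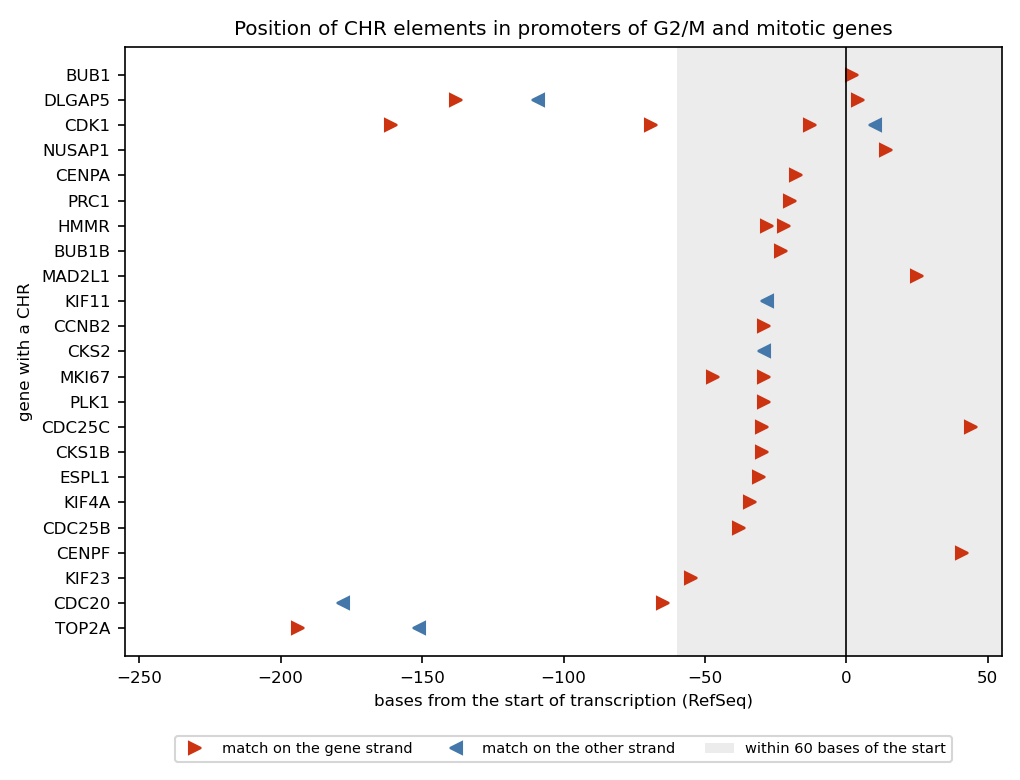
Positions of CHR matches in the promoters of the 23 genes that had at least 1, in bases from the start of transcription (x axis), with genes on the y axis. Arrowheads to the right mark matches on the strand of the gene, arrowheads to the left matches on the other strand, and grey shading the 60 bases on either side of the start, which holds a match for 21 of the 23 genes, CDC20 and TOP2A being the exceptions.

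Across the libraries, all 38 genes were expressed, from 1.22 FPKM for CENPE, a kinesin that ties chromosomes to microtubules, in PSPC1 cells to 521 FPKM for CKS2, a small subunit that binds CDK1, in Mut-NLS-CT131 cells. Among the genes with the highest deposited levels were CDC20, with 122 to 447 FPKM, and UBE2C, the ubiquitin-conjugating enzyme of the APC/C, with 189 to 369 FPKM. CKS1B, the sister of CKS2, varied little, with 192 to 243 FPKM over all 10 libraries. The members together took 0.450% of the reads on genes in SK-hep1 mock (95% Clopper-Pearson interval 0.447 to 0.453), 0.421% with PSPC1, 0.381% with PSPC1/PTK6, 0.454% with PSPC1-Y523F and 0.367% with PSPC1-Y523F/PTK6. Both libraries with PTK6 thus lay below the other 3 SK-hep1 libraries. In Mahlavu the share was 0.430% in mock, 0.424% for the sample labelled PSPC1-CT131 and 0.477% for the one labelled Mut-NLS-CT131. In Huh-7 it was 0.426% without HGF and 0.434% with it. The heat map of levels shows that the rows differ far more between genes than the columns do between conditions of a line.

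The libraries held between 15245935 and 24278662 reads on genes, and the scarcest member of a library still had 95 reads or more. PSPC1 itself was listed at 0 FPKM in SK-hep1 mock and had 7.01 FPKM in PSPC1, 26.4 FPKM in PSPC1/PTK6, 2.28 FPKM in PSPC1-Y523F and 70.9 FPKM in PSPC1-Y523F/PTK6 cells. PTK6 had 16.7 FPKM and 10.5 FPKM in the libraries with the PTK6 construct and 4.09 to 5.69 FPKM in the other 3. In Mahlavu, the level of PSPC1 was 47.3 FPKM for mock, 30.8 FPKM for the sample labelled PSPC1-CT131 and 22.5 FPKM for that labelled Mut-NLS-CT131, so it did not rise with the labels. The labels themselves read overexpression of the C-terminal of PSPC1 and of an NLS (nuclear localization signal) mutation of PSPC1. The names PSPC1-CT131 and Mut-NLS-CT131 are those of the paper. Both stand here for the libraries with these labels, also where a library is called labelled with them. Directions drawn from them rest on the labels. Of 10 hepatocyte markers, 9 were under 1 FPKM in every SK-hep1 and Mahlavu library (ALB at 0 in all 8), and all 10 were above it in Huh-7, with a summed level of 27013 to 27352 FPKM. The summed level of the hepatocyte list was 16.4 to 42.5 FPKM in SK-hep1 and 8.19 to 10.4 FPKM in Mahlavu, nearly all of it SERPINA1. Of 8 endothelial markers, 7 were under 1 FPKM in every SK-hep1 and Mahlavu library (ERG, KDR and CDH5 among them), and the sum of 65.6 to 171 FPKM in SK-hep1 came from EGFL7. Fibroblast and stromal markers summed to 101 to 340 FPKM in SK-hep1, led by COL3A1, and to 11.1 to 19.5 FPKM in Mahlavu, with DCN at or near 0 in all 8. Immune markers summed to 5.16 to 18.6 FPKM over the 10 libraries, led by CD14, with CD68 and CD3E near or at 0. The part of these markers in the results was not tested.

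Fold changes were taken as log2 of quantile-normalized FPKM + 1 between 2 libraries, and a gene was counted as higher or lower from 1.5-fold on. "Within 1.5-fold" is meant on this scale throughout, and deposited FPKM can differ slightly more. The 4 SK-hep1 comparisons with mock share the mock library, and each is given with its own values. PSPC1 alone left the G2/M and mitotic genes near the level of mock: their median log2 fold change was -0.06, beside -0.03 over all 12410 genes compared. None of the 38 was counted as higher, where 9.56% of all genes were, and 2 were counted as lower, HMMR and CENPF, where 8.66% were. None reached 2-fold, which 5.57% of all genes did in either direction. The count was 4 on FPKM as deposited and with TMM factors, which scale read counts by a trimmed mean of ratios, and 1 with a pseudocount of 5. In PSPC1-Y523F the median was -0.03 beside -0.01 over all genes, and 0.0062 after a fit of GC content and length was taken out. None of the 38 was higher at this threshold against 9.33% of all genes, 2 were lower (PTTG1 and TTK) against 9.33%, and none reached 2-fold against 5.29%. ESPL1 and FOXM1 lay below mock in PSPC1, at -0.48 and -0.24, and above it in PSPC1-Y523F, at 0.37 and 0.23.

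The libraries with PTK6 had lower levels of these genes than mock. In PSPC1/PTK6 the median was -0.27, beside -0.04 over all genes, and 24 of the 38 were below 0. Here 9 of 38 were counted as lower against 12.8% of all genes, none as higher against 12.4%, and 2 were at least 2-fold lower (MKI67 and ESPL1), where 8.41% of all genes reached 2-fold in either direction. The library with PSPC1-Y523F/PTK6 had a median of -0.23, beside -0.04, and its shift was small but broad: 34 of 38 genes were below 0 and 31 below the median of all genes. Only 4 of 38 were counted as lower (CKS2, KIF20A, PTTG1 and CDC25C) against 7.1% of all genes, none as higher against 8.19%, and none reached 2-fold against 5.03%. With FPKM scaled to the same sum the count was 8. Summed over all members, reads per library total changed by a log2 ratio of -0.24 (95% interval -0.25 to -0.23, counting error only) in PSPC1/PTK6 and -0.29 (-0.31 to -0.28) in PSPC1-Y523F/PTK6. The same ratio was -0.10 (-0.11 to -0.08) in PSPC1 and 0.01 (-0.00 to 0.02) in PSPC1-Y523F.

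By rank of quantile-normalized FPKM within SK-hep1, the lowest of the 5 libraries was PSPC1-Y523F/PTK6 for 16 of the 38 genes, where it was for 19% of all genes. It was PSPC1/PTK6 for 12 of the 38, against 28.3% of all genes. PSPC1 was lowest for 6 against 13.7%, PSPC1-Y523F for 3 (TTK, PTTG1 and DLGAP5) against 22.9%, and mock for 1, CDC25B, against 16.2%. The count in PSPC1-Y523F/PTK6 was thus above the share of all genes, and that in PSPC1/PTK6 was near it. The genes at their lowest in each are named by role. In PSPC1-Y523F/PTK6 these were the cyclin and CDK1 genes CCNB1, CCNB2, CDC25C, CKS1B and CKS2, the kinases AURKA, AURKB and NEK2, the checkpoint genes BUB1 and MAD2L1, and UBE2C, KIF20A, PRC1, NUSAP1, CENPA and TOP2A. In PSPC1/PTK6 they were the cyclin gene CCNA2, PLK1 and TPX2, the checkpoint gene BUB1B, CDC20 and ESPL1, the kinesins KIF11, KIF2C and KIF4A, and CENPE, MKI67 and FOXM1.

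Of the transcription factor, FOXM1 (chromosome 12, 2857681 to 2877155, GRCh38), which drives the late wave, SK-hep1 cells had 81.6 FPKM in mock, 66.0 FPKM in PSPC1, 43.2 FPKM in PSPC1/PTK6, 96.3 FPKM in PSPC1-Y523F and 59.6 FPKM in PSPC1-Y523F/PTK6. It was lower in both PTK6 libraries than in the 3 others, as were other members such as KIF2C. The log2 fold changes of FOXM1 against mock were -0.94 and -0.36 in the PTK6 libraries. FOXM1 overlaps ITFG2 and RHNO1 on the opposite strand, which had at most 369 and 790 reads in a library beside 2050 or more for FOXM1. The authors' library kit is not described as keeping strand, so reads of such pairs could not be told apart where exons overlap.

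Among the cyclins and activators of CDK1, CKS2 (chromosome 9, 89311198 to 89316703) had the widest range of the group in SK-hep1, as a ratio of highest to lowest FPKM. Its product binds CDK1 complexes, and its promoter carries the reverse CHR shown above. It had 95.8 FPKM in mock, 115 FPKM in PSPC1, 118 FPKM in PSPC1/PTK6, 129 FPKM in PSPC1-Y523F and 45.4 FPKM in PSPC1-Y523F/PTK6 cells, so that 1 library stood below the 4 others. Its reads per library total in PSPC1-Y523F/PTK6 against mock had a log2 ratio of -1.08 (-1.22 to -0.94). CCNB1, which encodes cyclin B1, had 253 FPKM in mock and 167 to 222 FPKM in the 4 transfectants, the lowest in PSPC1-Y523F/PTK6 with a log2 fold change of -0.58, just short of 1.5-fold. CDC25C, a phosphatase that activates CDK1, had 15.5 FPKM in mock, 12.1 FPKM in both PSPC1 and PSPC1/PTK6, 10.2 FPKM in PSPC1-Y523F and 8.96 FPKM in PSPC1-Y523F/PTK6. It overlaps FAM53C on the opposite strand, which had up to 1928 reads in a library. Its relative CDC25B was lowest in mock, with 115 FPKM beside 134 FPKM in PSPC1, 164 FPKM in PSPC1/PTK6, 122 FPKM in PSPC1-Y523F and 127 FPKM in PSPC1-Y523F/PTK6, and its log2 fold change was 0.51 in PSPC1/PTK6. CDK1 itself had 17.2 FPKM in mock, 16.0 FPKM in PSPC1, 21.6 FPKM in PSPC1/PTK6, 21.8 FPKM in PSPC1-Y523F and 17.9 FPKM in PSPC1-Y523F/PTK6. It and CCNA2 (cyclin A2), at 14.5 to 18.4 FPKM, stayed within 1.5-fold of mock in all 4 transfectants.

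Among the mitotic kinases, PLK1 (chromosome 16, 23677656 to 23690367), which acts from mitotic entry to cytokinesis, had 125 FPKM in mock, 117 FPKM in PSPC1, 72.0 FPKM in PSPC1/PTK6, 154 FPKM in PSPC1-Y523F and 112 FPKM in PSPC1-Y523F/PTK6. The low value was that of PSPC1/PTK6, at a log2 fold change of -0.81 against mock. AURKA, the kinase of spindle poles, was lowest in the other PTK6 library, with 99.5 FPKM in mock, 103 FPKM in PSPC1, 86.9 FPKM in PSPC1/PTK6, 129 FPKM in PSPC1-Y523F and 69.5 FPKM in PSPC1-Y523F/PTK6. AURKB, the kinase of the chromosomal passenger complex, stayed between 178 and 225 FPKM. BIRC5 (survivin), a subunit of the same complex, was highest in mock with 176 FPKM and had 116 to 148 FPKM in the transfectants. Its log2 fold change in PSPC1 was -0.53, short of 1.5-fold, while the log2 ratio of its reads was -0.60 (-0.67 to -0.53). NEK2, which splits centrosomes, ran from 15.3 to 27.4 FPKM, and TPX2, an activator of AURKA, from 81.4 to 101 FPKM.

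Of the spindle checkpoint genes, BUB1B, BUB1, BUB3 and MAD2L1 were within 1.5-fold of mock in all 4 transfectants. MAD2L1, which holds CDC20 inactive with BUBR1, had 12.3 FPKM in mock, 11.1 FPKM in PSPC1, 18.1 FPKM in PSPC1/PTK6, 14.5 FPKM in PSPC1-Y523F and 9.39 FPKM in PSPC1-Y523F/PTK6, so that it was highest in one PTK6 library and lowest in the other. TTK, the kinase at the top of the checkpoint, had 7.08 FPKM in mock, 5.16 FPKM in PSPC1, 9.12 FPKM in PSPC1/PTK6, 3.84 FPKM in PSPC1-Y523F and 5.39 FPKM in PSPC1-Y523F/PTK6. It was counted as lower in PSPC1-Y523F alone, where 107 reads beside 203 in mock gave a log2 ratio of -0.88 (-1.24 to -0.54).

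Of the APC/C and separase genes, ESPL1 (chromosome 12, 53268299 to 53293643), the protease that cuts cohesin, had 41.9 FPKM in mock, 28.8 FPKM in PSPC1, 22.1 FPKM in PSPC1/PTK6, 53.9 FPKM in PSPC1-Y523F and 28.1 FPKM in PSPC1-Y523F/PTK6. Within each PSPC1 form the library with PTK6 was the lower. CDC20 (chromosome 1, 43358955 to 43363203) had 390 FPKM in mock, 427 FPKM in PSPC1, 230 FPKM in PSPC1/PTK6, 447 FPKM in PSPC1-Y523F and 411 FPKM in PSPC1-Y523F/PTK6, so a single library was low. PTTG1 (securin, chromosome 5, 160421822 to 160428744), the inhibitor of separase, separated by the form of PSPC1 instead, with 125 FPKM in mock, 114 FPKM in PSPC1, 97.0 FPKM in PSPC1/PTK6, 68.3 FPKM in PSPC1-Y523F and 69.9 FPKM in PSPC1-Y523F/PTK6. Its log2 fold change against mock was -0.81 and -0.75 in the 2 mutant libraries. UBE2C was lowest in mock, with 255 FPKM beside 335 FPKM in PSPC1, 278 FPKM in PSPC1/PTK6, 369 FPKM in PSPC1-Y523F and 259 FPKM in PSPC1-Y523F/PTK6, all within 1.5-fold.

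Among kinesins and spindle proteins, KIF20A (chromosome 5, 138178719 to 138187715), a kinesin of the central spindle whose shown promoter holds no CHR, had 71.0 FPKM in mock, 56.2 FPKM in PSPC1, 39.7 FPKM in PSPC1/PTK6, 54.1 FPKM in PSPC1-Y523F and 34.3 FPKM in PSPC1-Y523F/PTK6. It was the only member counted as lower than mock in both PTK6 libraries, at -0.89 in each. Both comparisons use the same mock library, where KIF20A was at its highest in this line, so these calls are not independent. The share of all genes counted as lower in both was not taken. KIF20A overlaps CDC23 and BRD8 on the opposite strand, with up to 1456 and 1710 reads beside 1147 or more for KIF20A. HMMR, a spindle-binding protein, had 8.07 FPKM in mock, 3.73 FPKM in PSPC1, 6.24 FPKM in PSPC1/PTK6, 5.59 FPKM in PSPC1-Y523F and 7.11 FPKM in PSPC1-Y523F/PTK6. It was lowest in PSPC1, with a log2 ratio of reads of -1.11 (-1.42 to -0.81) from 128 and 297 reads. KIF4A, a chromosome-bound kinesin, had 20.8 FPKM in PSPC1/PTK6 beside 29.8 FPKM in mock, and it overlaps PDZD11 on the opposite strand. KIF2C, which depolymerizes microtubules, had 76.5 FPKM and 83.9 FPKM in the PTK6 libraries beside 106 to 117 FPKM in the 3 others. Other members, among them CCNB1, CKS1B, TPX2 and PRC1, were also lower in both PTK6 libraries than in every other. The share of all genes in this order was not counted. The remaining 5 of the 9 (KIF11, KIF23, PRC1, NUSAP1 and DLGAP5) stayed within 1.5-fold of mock in every transfectant. Of these, DLGAP5 had 24.2 FPKM in mock, 22.6 FPKM in PSPC1, 29.3 FPKM in PSPC1/PTK6, 16.1 FPKM in PSPC1-Y523F and 20.1 FPKM in PSPC1-Y523F/PTK6. NUSAP1 in PSPC1-Y523F/PTK6 was short of the threshold at -0.52, with a log2 ratio of reads of -0.66 (-0.77 to -0.56).

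Of the centromere and chromosome proteins, MKI67 (chromosome 10, 128096659 to 128126385), which coats mitotic chromosomes and encodes the Ki-67 antigen, had 45.4 FPKM in mock, 29.1 FPKM in PSPC1, 20.5 FPKM in PSPC1/PTK6, 38.3 FPKM in PSPC1-Y523F and 30.1 FPKM in PSPC1-Y523F/PTK6. Mock was the highest, and PSPC1/PTK6 had the farthest value from it of all members in this comparison, with a log2 fold change of -1.25. CENPF, a kinetochore protein, was also highest in mock, with 39.5 FPKM beside 23.6 FPKM in PSPC1, 27.1 FPKM in PSPC1/PTK6, 30.5 FPKM in PSPC1-Y523F and 34.7 FPKM in PSPC1-Y523F/PTK6. TOP2A, the topoisomerase that untangles sister DNA, stood high in 1 library, with 138 FPKM in mock, 113 FPKM in PSPC1, 181 FPKM in PSPC1/PTK6, 112 FPKM in PSPC1-Y523F and 105 FPKM in PSPC1-Y523F/PTK6. CENPA, the histone of the centromere, stayed between 27.1 and 36.3 FPKM. The scarce CENPE had 2.03 FPKM in mock, 1.22 FPKM in PSPC1, 1.70 FPKM in PSPC1/PTK6, 1.505 FPKM in PSPC1-Y523F and 2.26 FPKM in PSPC1-Y523F/PTK6. Its 95 reads in PSPC1 beside 169 in mock gave a log2 ratio of -0.73 (-1.11 to -0.36), an interval that spans 1.5-fold.

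The libraries with and without PTK6 were compared within each form of PSPC1, and these comparisons share no library. PSPC1 itself was also higher in both libraries with PTK6 (26.4 beside 7.01 FPKM, and 70.9 beside 2.28 FPKM), so that more PSPC1 and added PTK6 cannot be told apart. With wild-type PSPC1 the median of the 38 genes was -0.17, beside -0.02 over all genes, when PTK6 was present. Of the 38, 6 were counted as lower (CDC20, PLK1, FOXM1, MKI67, KIF2C and KIF20A) against 7.34% of all genes, 1 as higher (TOP2A, 0.65) against 8.09%, and none reached 2-fold against 4.96%. With PSPC1-Y523F the median was -0.23, beside -0.03 over all genes. Here 4 were counted as lower (CKS2, ESPL1, AURKA and FOXM1) against 9.28% of all genes, none as higher against 10.4%, and 1 (CKS2, -1.35) reached 2-fold against 5.98%. With FPKM scaled to the same sum the count was 7. The summed reads of the members gave log2 ratios of -0.15 (-0.16 to -0.13) and -0.31 (-0.32 to -0.29). Of the 38, 22 were below 0 in both comparisons, or 57.9%, where 33.3% of the 11931 genes compared in both were. FOXM1 alone was counted as lower in both, at -0.71 and -0.59, as were 248 of the 11931 genes, and the second of these values lies close to the threshold. On FPKM as deposited, without quantile normalization, the median of the 38 with wild-type PSPC1 was 0.0009 while that of all genes was 0.20, and 4 members were counted as higher and 4 as lower. On read counts with TMM factors none was higher and 7 were lower, and with PSPC1-Y523F 1 was higher and 3 were lower. Relative to all genes, the members were lower by 0.15 to 0.21 under each of the 9 alternatives tried and by 0.15 as first computed. PSPC1/PTK6 against PSPC1 also followed GC content, with a Spearman's rho over members of -0.57 and over all 12380 genes with a GC value of -0.31. The 19 members of lower GC content had a median of 0.01 and the 19 of higher GC content one of -0.29. The part of GC content in this difference was not tested beyond the fit in the closing section. Within each form of PSPC1, the markers of other cell types that could be compared were higher in the library with PTK6. With PSPC1-Y523F the only hepatocyte and endothelial markers that could be compared, SERPINA1 and EGFL7, had log2 fold changes of 0.84 and 0.90. There 3 of 3 stromal markers were counted as higher (median 0.82), and the immune markers CD14 and CD79A had 1.15 and 0.40. With wild-type PSPC1 the values were 0.75 for SERPINA1, 0.59 for EGFL7, a median of 0.18 over 3 stromal markers with 1 counted as higher, and 0.29 for CD14. Against mock the order was mixed: SERPINA1 and EGFL7 were above mock in both PTK6 libraries. COL1A1 was below it in PSPC1/PTK6 and PSPC1-Y523F/PTK6 (-0.81 and -0.79), as was CD14 (-1.01 and -0.0010). In PSPC1-Y523F without PTK6, SERPINA1 (-0.27), EGFL7 (-0.47), CD14 (-1.15) and all 3 stromal markers (median -0.76) were below mock. The part of these markers in the lower values of the members was not tested. PTK6 was also fitted over the 4 transfectants with the form of PSPC1 as block, a test chosen after the data had been seen. Its 1 residual degree of freedom is how far the PTK6 difference itself differs between the 2 forms, which stands for the spread. No replicate enters the fit, so its p-values do not measure the spread between replicates. None of the 38 passed an adjusted p of 0.05 in edgeR's quasi-likelihood test with Benjamini-Hochberg adjustment, where 0.747% of 12443 genes were higher and 0.161% lower, nor in limma, where 0.876% were higher and 0.354% lower. At an unadjusted p under 0.05 edgeR gave 6 members, all lower (ESPL1, FOXM1, KIF20A, PLK1, AURKA and CKS2), beside 12.4% of all genes, and limma 4, all lower, beside 14% of all genes. The smallest p of a member in edgeR was that of ESPL1, at a log2 fold change of -0.73 with an adjusted p of 0.228, followed by FOXM1 at -0.72 with an adjusted p of 0.247. The median of the 38 in this fit was -0.26 by edgeR, beside -0.0033 over all genes, and -0.23 by limma, beside -0.03. By either tool 27 of 38 were below 0. The scatter of both comparisons shows FOXM1, KIF20A, ESPL1 and PLK1 in the lower left.

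In Mahlavu the 2 fragments gave different pictures. The library labelled Mut-NLS-CT131 had most G2/M and mitotic genes above mock: 30 of 38 were above 0, and the median was 0.23 beside 0.00 over all genes. Counted as higher were 7 of 38 (CKS2, BUB1, NEK2, PTTG1, KIF2C, AURKB and DLGAP5) against 11.1% of all genes, none as lower against 11.3%, and none reached 2-fold against 6.42%. On FPKM as deposited the count was 4. CKS2, BUB1, NEK2 and PTTG1 stayed past 1.5-fold in 9 of 9 alternatives, KIF2C and AURKB in 6 and DLGAP5 in 4. In the library labelled PSPC1-CT131 the members split. Their median was 0.07 beside 0.01, with 3 of 38 counted as higher (PLK1, CDC20 and ESPL1) against 11.2% of all genes and 7 as lower (CDK1, MAD2L1, CENPF, HMMR, TTK, TOP2A and CKS2) against 12.3%. Only CDK1 reached 2-fold, against 6.33% of all genes. On FPKM as deposited the median was -0.016 while that of all genes was -0.24. These comparisons share the mock library. Compared with each other directly, PSPC1-CT131 had a median of -0.23 against Mut-NLS-CT131, beside 0.01 over all genes. Here 9 were lower (CKS2, CDK1, MAD2L1, TTK, NEK2, HMMR, BUB1, DLGAP5 and TOP2A) against 15.2% of all genes, 2 were higher (CDC25B and ESPL1) against 14.9%, and 5 were at least 2-fold lower against 8.82%. On FPKM as deposited 12 were lower and 1 was higher, and with TMM factors 9 and 4. Among markers of other cell types, EGFL7 had -0.60 and both stromal markers that could be compared had a median of -0.77 in Mut-NLS-CT131 against mock, and their part in the result was not tested. The summed reads had log2 ratios of 0.15 (0.14 to 0.16) for Mut-NLS-CT131 against mock and -0.02 (-0.03 to -0.01) for PSPC1-CT131 against mock. Mut-NLS-CT131 was the highest of the 3 Mahlavu libraries for 20 of 38 genes against 33.7% of all genes. PSPC1-CT131 was highest for 13 against 37.4%, and mock for 5 against 29%.

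By the difference in deposited FPKM, CKS2 had the widest range of the members in this line, with 266 FPKM in mock, 185 FPKM in PSPC1-CT131 and 521 FPKM in Mut-NLS-CT131. The log2 ratio of its reads was 0.97 (0.91 to 1.03) in Mut-NLS-CT131 against mock. CDK1 (chromosome 10, 60778331 to 60794852) had 73.4 FPKM in mock, 30.0 FPKM in PSPC1-CT131 and 86.0 FPKM in Mut-NLS-CT131, and only the PSPC1-CT131 value stood apart. The checkpoint genes MAD2L1 and TTK followed the same order. MAD2L1 had 39.7 FPKM in mock, 17.5 FPKM in PSPC1-CT131 and 48.7 FPKM in Mut-NLS-CT131. TTK had 34.4 FPKM, 16.9 FPKM and 44.1 FPKM in the same 3 libraries. BUB1 (chromosome 2, 110637698 to 110678114), which recruits checkpoint proteins to kinetochores, was instead high in Mut-NLS-CT131, with 55.9 FPKM, 50.3 FPKM and 98.2 FPKM in this order. BUB1B, whose product BUBR1 holds CDC20 inactive, had 41.6 FPKM, 34.0 FPKM and 38.1 FPKM, and BUB3 had 68.1 FPKM, 49.4 FPKM and 61.8 FPKM, so that both were highest in mock.

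NEK2 had 28.1 FPKM in mock, 18.8 FPKM in PSPC1-CT131 and 44.5 FPKM in Mut-NLS-CT131. PTTG1 had 55.3 FPKM, 54.5 FPKM and 84.9 FPKM in this order, so that it differed in the mutant fragment only. HMMR had 30.5 FPKM, 13.8 FPKM and 31.5 FPKM, and CENPF had 69.1 FPKM, 34.9 FPKM and 54.3 FPKM, both with PSPC1-CT131 as the low value. TOP2A had 195 FPKM, 127 FPKM and 206 FPKM. The genes counted as higher in PSPC1-CT131 than in mock were PLK1, with 51.9 FPKM in mock, 80.2 FPKM in PSPC1-CT131 and 56.8 FPKM in Mut-NLS-CT131, CDC20, with 123 FPKM, 189 FPKM and 131 FPKM, and ESPL1, with 22.0 FPKM, 28.1 FPKM and 20.2 FPKM. ESPL1 stayed past 1.5-fold in 5 of 9 alternatives, the others in 8. CDC25B had 199 FPKM, 275 FPKM and 148 FPKM, and its log2 fold change between the 2 fragments was 0.90. FOXM1 differed little, with 70.5 FPKM, 75.3 FPKM and 60.9 FPKM.

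The split in PSPC1-CT131 ran along base composition. The members with the lowest GC content of the longest transcript, such as CDK1 (37.0%), HMMR (36.7%) and MAD2L1 (39.4%), were lower in PSPC1-CT131 than in mock, and those with the highest, such as CDC20 (57.9%) and PLK1 (57.1%), were higher. Over the 38 members Spearman's rho of fold change with GC content was 0.89, and over all 12402 genes with a GC value it was 0.57, given as descriptions, since all points come from the same 2 libraries. The 19 members of lower GC content had a median of -0.31 on the log2 scale, with 7 counted as lower and none as higher. The 19 of higher GC content had a median of 0.30, with 3 counted as higher and none as lower. In Mut-NLS-CT131 against mock the same rho was -0.09 over members and -0.10 over all genes, with medians of 0.17 and 0.26. The members as a set are AT-rich, with a median GC content of 44.0% beside 49.1% for all 12892 genes. When a quadratic fit of GC content and gene length over all genes was taken out, 2 of the 10 members counted in PSPC1-CT131 against mock remained past 1.5-fold, CDK1 at -0.63 and CENPF at -0.59, and none was added. On read counts with TMM factors 7 members were counted as higher and 5 as lower in place of 3 and 7. After the fit the median of the members was 0.15. In PSPC1-CT131 against Mut-NLS-CT131, the 19 members of lower GC content had a median of -0.53 and the 19 of higher GC content one of 0.07. The fit moved the median of all 38 in this comparison from -0.23 to -0.035, and 6 of 11 remained past 1.5-fold, all of them lower. These were CKS2 (-1.18), MAD2L1 (-0.87), TTK (-0.82), CDK1 (-0.81), NEK2 (-0.74) and BUB1 (-0.66).

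In Huh-7, with 1 library against 1, these genes lay near their untreated level after HGF for 48 h. Their median log2 fold change was 0.02, beside -0.00 over all 14262 genes, and no member reached 1.5-fold in either direction, as did 1.81% of all genes upward and 1.45% downward, nor 2-fold, as 0.82% did. The members ran from -0.20 for FOXM1, with 45.9 FPKM without HGF and 39.5 FPKM with it, to 0.29 for NEK2, with 34.3 FPKM and 42.3 FPKM. Next to them were CENPF, with 36.3 FPKM and 31.5 FPKM, ESPL1, with 24.2 FPKM and 22.0 FPKM, TOP2A, with 304 FPKM and 338 FPKM, and KIF20A, with 55.3 FPKM and 61.1 FPKM. The summed reads had a log2 ratio of 0.03 (0.01 to 0.04). These Huh-7 reads were recovered from the deposited FPKM, which were whole multiples of 1 read in 100% of the values within 0.02 of a read.

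Between the lines, 8 of 38 genes were higher in all 3 Mahlavu libraries than in all 5 SK-hep1 libraries after joint quantile normalization, against 22.7% of all 12902 genes, and 5 were lower in all, against 25.7%. Each range includes the mock library of its line. The genes higher in Mahlavu were CDK1, CCNA2, CKS2, BUB1, MAD2L1, TTK, HMMR and CENPE, and those lower were CCNB1, AURKB, BIRC5, CDC20 and KIF2C. TTK, for example, had 3.84 to 9.12 FPKM in SK-hep1 (median 5.39), 16.9 to 44.1 FPKM in Mahlavu (median 34.4) and 36.1 to 38.6 FPKM in Huh-7 as deposited. CDC20 had 230 to 447 FPKM in SK-hep1 (median 411), 123 to 189 FPKM in Mahlavu (median 131) and 122 FPKM in both Huh-7 libraries. As deposited, and so without a common normalization, Huh-7 lay above every library of the other lines for 8 of the 38 genes, TOP2A among them, against 30.7% of all 13858 genes. It lay below them for 5, against 23.5%, among them CENPA with 17.7 FPKM and 17.1 FPKM. Both Huh-7 counts were below the shares of all genes. CKS1B, TPX2 and FOXM1 were among the 25 genes whose SK-hep1 and Mahlavu ranges overlapped.

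The other genes of the pathway were read from lists set by function. In PSPC1/PTK6 against mock, 17 of 50 other mitotic genes were counted as lower against 12.8% of all genes, and 1 as higher against 12.4%. Their median was -0.43, the tubulin gene TUBA1B being the lowest at -1.12. In PSPC1-Y523F/PTK6 against mock 5 of the 50 were lower against 7.1% of all genes, and 1 higher against 8.19%, with a median of -0.12. In Mut-NLS-CT131 against mock, where the 38 members had a median of 0.23, the 50 had a median of 0.03. There 3 of the 50 were higher against 11.1% of all genes and 1 lower against 11.3%, so the shift of the 38 was not seen at that size in the longer list. The 13 core subunits and partners of the APC/C had a median of -0.30 in PSPC1/PTK6 against mock and of -0.10 in Mut-NLS-CT131 against mock. In each 2 of the 13 were lower, near the shares of 12.8% and 11.3% of all genes. Of the 12 DREAM and MuvB genes 11 could be compared. Their medians were -0.18 in PSPC1/PTK6 and -0.38 in Mut-NLS-CT131 against mock, and MYBL2 (B-MYB) was lowest of the list with PTK6 added to wild-type PSPC1, at -0.96. Of 8 inhibitors of the G2 to M step, 2 were counted as higher and 2 as lower in PSPC1/PTK6 against mock, with a median of -0.23. The shares of all genes there were 12.4% and 12.8%. The highest was GADD45A, a stress gene that restrains CDK1, at 1.34, and the lowest SFN (14-3-3 sigma), which keeps CDK1 in the cytoplasm, at -0.65. In PSPC1-CT131 against mock 3 of the 8 were higher against 11.2% of all genes, and none lower against 12.3% (median 0.33). In Mut-NLS-CT131 against mock 4 were higher against 11.1%, and none lower against 11.3% (median 0.65). SFN was the highest in both, at 2.10 and 1.84.

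DNA replication and G1/S genes did not move with the G2/M genes in every library. Shares of all genes counted in the comparisons with mock are those given above. Of 18 such genes, 15 were counted as lower in PSPC1/PTK6 against mock (median -0.86) and 7 in PSPC1 (median -0.52), where only 9 and 2 of the 38 were. In Mut-NLS-CT131 against mock 13 of the 18 were lower, with a median of -0.67 and CDC6, which loads the replicative helicase, at -1.31, while 7 of the 38 G2/M and mitotic genes were higher and none lower. PSPC1-CT131 against Mut-NLS-CT131 shares the Mut-NLS-CT131 library with this comparison. Here 10 of the 18 were higher (median 0.62), where 14.9% of all genes were, and 9 of the 38 were lower, where 15.2% were. In PSPC1-CT131 against mock the 18 had a median of -0.08. With GC content and length taken out the median of the 38 between the fragments was -0.035. The median of the 18 was not taken after this fit, so its 0.62 cannot be set beside that value. In PSPC1-Y523F/PTK6 against mock the medians of both lists were close, -0.24 for the 18 and -0.23 for the 38. With HGF, 17 of the 18 were below 0, with a median of -0.23 and none past 1.5-fold.

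Members with and without a CHR were set side by side as a description. In Mut-NLS-CT131 against mock the 8 genes with a promoter but no CHR had a median of 0.44, with 4 counted as higher. The 23 with a CHR had a median of 0.11, with 3 counted as higher, where 11.1% of all genes were. In PSPC1-Y523F/PTK6 against mock the medians were -0.34 without and -0.23 with a CHR. In PSPC1/PTK6 against mock they were -0.38 without and -0.08 with a CHR, while 1 of the 8 and 7 of the 23 were counted as lower, beside the 12.8% of all genes given above. Processed pseudogenes of the members had at most 26 reads in a library, for a copy of NEK2, beside 502 or more for NEK2 itself.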

How the data were processed

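RNA-Seq data of 10 libraries, 1 per condition, were used as deposited. For SK-hep1 and Mahlavu the authors deposited raw read counts by gene together with FPKM, and for Huh-7 FPKM only. The submitters' processing notes list TopHat2 2.0, HTSeq 0.6.1, edgeR and GRCh38.p12, without their roles, and 97.6% of the genes also listed in GENCODE 29 (GRCh38) have its positions. The labels describe poly-A selection and the paper's methods rRNA depletion. In every table, 8 lines without a value were left out. Conditions were taken from the labels, and the names of the Mahlavu fragments from the paper.

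The paper's methods describe quantile normalization over all samples. Here FPKM were quantile normalized over the 8 SK-hep1 and Mahlavu libraries and separately over both Huh-7 libraries. Fold changes were log2(FPKM + 1) differences over genes averaging 1 FPKM or more in the 2 libraries compared, and 1.5-fold was the call, with 2-fold beside it. Pairs of libraries have no p-value. PTK6 was fitted over the 4 SK-hep1 transfectants with the form of PSPC1 as block, by edgeR's quasi-likelihood test on read counts and by limma on log2(FPKM + 1), a test added after the data were seen. Shares of reads have 95% Clopper-Pearson intervals, and ratios of reads exact conditional ones. Reads carry no molecular identifiers, so these cover counting error only. The Huh-7 totals were recovered from whole reads. The members, the gene lists and the comparisons were chosen with earlier results of these data known. All 38 members could be named. The rule gave values in every library of the line for the 3 largest rises and falls per comparison, and named at most the 2 genes with the largest change from each other list. PSPC1 and PTK6 served to check the constructs. Overlapping genes, pseudogenes and marker genes named beside a result were chosen after their values were seen.

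The alternatives were pseudocounts of 0.1 and 5, no normalization of the deposited FPKM, scaling to the same sum, normalization within each line, read counts with TMM factors, no filter, a mean of at least 5 FPKM, GC content and gene length taken out by a quadratic fit, and mitochondrial reads left out. Promoters were those of RefSeq (GRCh38.p14), and only the part before the start is printed. Calculations were tested on simulated data. Python 3.11.15, numpy 2.4.6, pandas 2.3.3, scipy 1.17.1, matplotlib 3.10.9, edgeR 4.0.16 and limma 3.58.1 in R 4.3.3 were used.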

Additional observations from a re-analysis of the deposited data

How the results depend on the processing

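Relative to the median of all genes, the members lay on the same side under each of the alternatives tried in 8 of the 10 comparisons. The exceptions were PSPC1 against mock (-0.06 to 0.02, the sign kept in 8 of 9) and PSPC1-Y523F against mock (-0.03 to 0.03, kept in 5 of 9). Medians and counts past 1.5-fold that moved by more than the counting error or by more than 1.5 times are given by setting, always in the order PSPC1, PSPC1 with PTK6, the Y523F mutant and the mutant with PTK6 against mock, PTK6 added to PSPC1 and to PSPC1-Y523F, PSPC1-CT131 and Mut-NLS-CT131 against mock, and PSPC1-CT131 against Mut-NLS-CT131, with comparisons that did not move left out. With 0.1 added, the count in PSPC1 was 4. With 5 added, the counts in PSPC1 and PSPC1-Y523F were 1 each, and the medians were -0.21 (PSPC1/PTK6), -0.22 (PSPC1-Y523F/PTK6), -0.22 (PTK6 added to PSPC1-Y523F), 0.18 (Mut-NLS-CT131) and -0.21 (between the fragments). On FPKM as deposited the medians were -0.10, -0.18, -0.34 (PSPC1-Y523F/PTK6), 0.0009 (PTK6 added to PSPC1, reversed), -0.30, -0.016 (PSPC1-CT131, reversed), 0.16 and -0.34, with 4 genes counted in PSPC1 and 4 in Mut-NLS-CT131. With FPKM scaled to the same sum they were -0.11, -0.19, -0.0003, -0.36, 0.0040 (PTK6 added to PSPC1, reversed), -0.35, -0.024 (PSPC1-CT131, reversed), 0.16 and -0.35, with 0.0044 for HGF, and the counts were 4 in PSPC1, 8 in PSPC1-Y523F/PTK6, 7 with PTK6 added to PSPC1-Y523F and 4 in Mut-NLS-CT131. Both scalings move the median of all genes itself, by up to -0.26 in PSPC1-CT131 against mock and 0.20 with PTK6 added to PSPC1. With TMM factors the count in PSPC1 was 4, and the medians were -0.37 (PSPC1/PTK6), -0.21 and -0.19 (PTK6 added), 0.27, 0.32 and -0.21 (Mahlavu). With GC content and length taken out the medians were -0.021, -0.22, 0.0062 (PSPC1-Y523F, reversed), -0.21, -0.25 (PTK6 added to PSPC1), 0.15, 0.17 and -0.035, and the counts 1 in PSPC1-Y523F, 2 in PSPC1-CT131 and 6 between the fragments. With a mean of at least 5 FPKM they were -0.22 (PSPC1/PTK6), -0.011 (PSPC1-Y523F), 0.12 (PSPC1-CT131) and 0.20 (Mut-NLS-CT131), and with normalization within each line 0.21 (Mut-NLS-CT131). Without mitochondrial reads the shares were 0.426%, 0.385%, 0.462% and 0.370% in the 4 SK-hep1 transfectants and 0.436%, 0.427% and 0.485% in Mahlavu. Leaving out the filter moved no result. Of the genes counted, FOXM1 with PTK6 added to PSPC1-Y523F stayed past 1.5-fold in 7 of 9 alternatives, and with PTK6 added to PSPC1 in 9 of 9. MKI67, ESPL1, PLK1, CDC20 and KIF20A stayed past it in PSPC1/PTK6 against mock in 9 of 9, HMMR in 5 of 9. Except for the scalings and the fit, whose construction shifts the values, the cause was not tested.

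The fit of PTK6 with the form of PSPC1 as block called 0 of the 38 members in edgeR and 0 in limma. It has 1 residual degree of freedom, so no library could be left out of it. For the scarcest members depth is a limit as well as the missing replicates: the intervals of TTK in PSPC1-Y523F (-1.24 to -0.54) and CENPE in PSPC1 (-1.11 to -0.36) span 1.5-fold.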
